A study of Homo sapiens with 6 samples.

Results

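Levels of 9 genes of the NRF2 antioxidant response were compared between drug-naive leukemia cells and a derivative of them that is resistant to a BET inhibitor. The 9 genes were taken by symbol from a table of 19785 genes: NFE2L2, KEAP1, NQO1, GCLC, GCLM, TXNRD1, SRXN1, HMOX1 and TXNIP. Each had a single row in the table, and all 9 were above the minimum level for testing, which left 10741 genes.

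SET-2 is an established human leukemia line of megakaryoblastic character, which the labels class as secondary acute myeloid leukemia blasts. The parental group was SET-2 Parental and the other group was SET-2 OTX P/R, its persister and resistant derivative, with 3 cultures each, replicates 1 to 3. OTX is read here as birabresib, a blocker of the bromodomain proteins that sustain transcription at acetylated chromatin. Both groups were labelled untreated and were grown in the same medium to exponential phase. By these labels no drug-treated group was part of the comparison. Any effect of earlier drug exposure on the derivative was not tested. The labels name a single derivative, so changes that accompany resistance and changes of this derivative alone cannot be told apart.

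NRF2, the product of NFE2L2, is a transcription factor that is made continuously and destroyed at once in unstressed cells. KEAP1 holds it and presents it to the CUL3 and RBX1 ubiquitin ligase. Oxidants and electrophiles modify KEAP1, after which NRF2 collects in the nucleus, pairs with a small MAF protein and binds antioxidant response elements near its targets. Among those targets are NQO1, which reduces quinones, GCLC and GCLM, the catalytic and modifier subunits of the first enzyme of glutathione synthesis, TXNRD1, which recharges thioredoxin, SRXN1, which restores overoxidized peroxiredoxin, and HMOX1, which degrades heme. BACH1 competes with NRF2 at such elements, at HMOX1 in particular. TXNIP is of another kind: it binds and inhibits thioredoxin, is no antioxidant enzyme, and is induced by glucose through MondoA and MLX. NRF2 is regulated mostly as a protein, so the level of its RNA does not give its activity.

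The core of the antioxidant response element, TGACNNNGC, was sought on both strands of the windows from 250 bases before to 50 bases after each gene start in RefSeq (GRCh38.p14, a build other than the hg19 of the table). These windows were given for 8 of the 9 genes, all but HMOX1. A match was found for KEAP1, GCLM and TXNRD1, that is 3 of 8, while 16.1% of all 27305 genes and 13.3% of all windows hold a match. The stretches are shown because of these genes KEAP1 and GCLM fell and TXNRD1 did not pass, as described below. The matches read as follows on the gene's strand, 5′ to 3′, with the match in capitals (in the lines for KEAP1 upstream of the second start, GCLM and the second TXNRD1 start the match is on the opposite strand, where the first 2 read TGACTAAGC and the last TGACAAAGC):
KEAP1, second start, chr19:10502784-10502812, minus strand: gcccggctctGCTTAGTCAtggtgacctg
GCLM, chr1:93909446-93909474, minus strand: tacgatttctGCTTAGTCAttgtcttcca
TXNRD1, second start, chr12:104286920-104286948, plus strand: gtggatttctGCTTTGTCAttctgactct
TXNRD1, first start, chr12:104215670-104215698, plus strand: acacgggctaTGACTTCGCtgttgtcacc

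The GCLM match lies 34 to 26 bases before the gene start, the KEAP1 match 31 to 23 bases before it, and the TXNRD1 matches 102 to 94 and 99 to 91 bases before theirs. KEAP1 has another match, TGACACGGC, 54 to 46 bases before its second start, and TXNRD1 has another, TGACGGAGC on the opposite strand, that reaches its first start. The KEAP1, GCLM and second TXNRD1 matches lie inside an untranslated region of some transcript in GENCODE v29. For TXNIP the pair of boxes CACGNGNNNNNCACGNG was sought instead, the kind of element that MondoA and MLX bind. It was found 88 to 72 bases before the first start, and 0.0732% of all genes hold it.
TXNIP, first start, chr1:145996645-145996673, minus strand: gatgtgCACGAGGGCAGCACGAGcctccg
A match is a description of the letters, not a bound site. Elements outside these windows were not sought, so a gene without a match may hold one elsewhere.

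The table holds a normalized abundance per gene and library, without a true unit, made by the authors with StringTie and then quantile-normalized, so that a value stands for a gene's rank within its library. The library sums were 419375 to 419437, equal by construction, and the depth of sequencing is not known. Between libraries, tested genes on the log2 scale correlated at 0.986 to 0.988 within a group and at 0.948 to 0.949 across groups (Pearson, over genes). Of 9 megakaryocyte markers 6 were high enough to test, of which 4 rose and 1 fell, and GATA1 stood at 189 ± 4.90 and 204 ± 3.87 (SD, n = 3 each, parental first), while PF4 was listed at 0 throughout. The 6 T and NK cell markers summed to 72.0 to 78.6 in parental and 30.9 to 33.3 in OTX P/R libraries, most of it NKG7 (62.2 ± 2.64 and 29.6 ± 1.31). All 3 of them that were tested fell, NKG7, GNLY (6.01 ± 0.302 and 1.52 ± 0.198) and CD3D (5.24 ± 1.046 and 0.593 ± 0.226). CD3D met the minimum level only through its parental libraries, and CD3E and CD3G were near 0 in both groups. The part of the T and NK cell marker difference in the results below was not tested. The B cell markers summed to 13.8 to 16.1 and 9.87 to 10.8 with MS4A1 at 0, and the 10 stromal, epithelial and endothelial markers to 8.94 to 11.2 and 16.0 to 18.4. Most of the latter was KRT18 (9.52 ± 0.884 and 14.3 ± 1.20), the single gene of the 10 that was tested. COL1A1 (0.0732 and 1.92) and COL1A2 (0.0353 and 0.0107) were below the minimum level for testing.

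Of the 9 genes 6 fell in OTX P/R cells, NFE2L2, KEAP1, NQO1, GCLM, HMOX1 and TXNIP, none rose, and GCLC, TXNRD1 and SRXN1 did not pass (limma on log2(value + 1), adjusted p under 0.05 over all tested genes). GCLC, TXNRD1 and SRXN1 did not pass without adjustment either (limma unadjusted p = 0.140, 0.271 and 0.457). At the adjusted p under 0.05, 17.5% of all tested genes were called lower and 18.6% higher. In each of the 6 genes that fell, all OTX P/R libraries were below all parental ones, which was so for 24.9% of tested genes. The median log2 fold change of the 9 genes was -0.33, beside 0.02 over all tested genes. Because the RNA came from whole cultures, fewer cells with a transcript and less of it in each cell cannot be told apart.

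**Figure D1:**
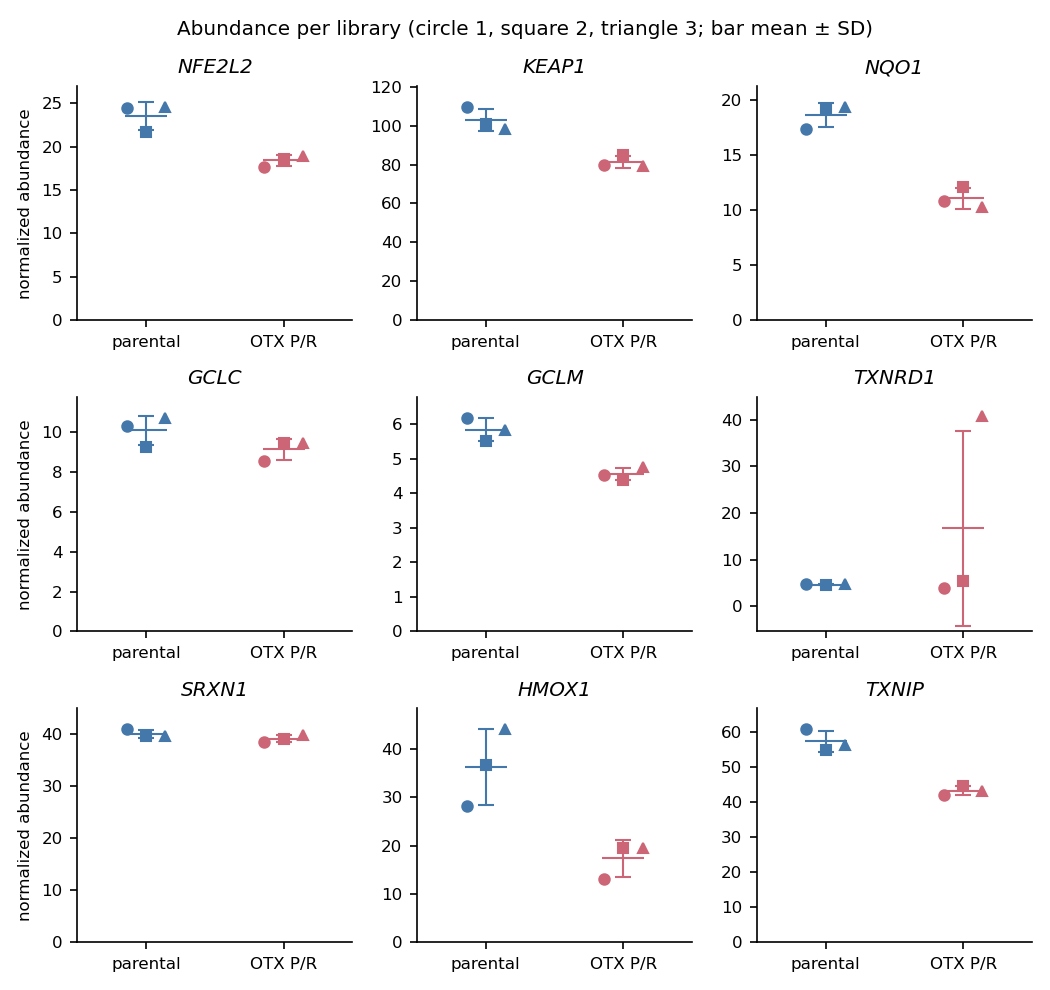
Normalized abundance of the 9 genes (y axis, linear) in the parental and OTX P/R libraries (x axis), with replicates as circle 1, square 2 and triangle 3 and bars for the mean ± SD. The groups are apart for NFE2L2, KEAP1, NQO1, GCLM, HMOX1 and TXNIP, and OTX P/R replicate 3 alone is high for TXNRD1, at 40.8.

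The transcription factor and its inhibitor fell by nearly the same amount. NFE2L2 (ENSG00000116044, chromosome 2) stood at 24.4, 21.6 and 24.5 in parental replicates 1 to 3 and at 17.7, 18.5 and 19.0 in OTX P/R replicates 1 to 3. Every OTX P/R library was below every parental library, and the mean went from 23.5 ± 1.63 to 18.4 ± 0.640 (SD, n = 3 per group), 78.2% of the parental level. The log2 fold change was -0.34 ± 0.07 (SE; 95% interval -0.50 to -0.18, limma adjusted p = 0.00996). AGPS, a gene on the opposite strand, overlaps NFE2L2 and was listed at 10.13 to 12.11 in the 6 libraries, and no source used here says whether strand was used in quantification, so reads of the overlap may have been shared. KEAP1 (ENSG00000079999, chromosome 19) was the most abundant of the 9 genes, at 109, 101 and 98.3 in parental and 79.5, 84.9 and 79.5 in OTX P/R libraries. Again the groups were apart, with means of 103 ± 5.82 and 81.3 ± 3.11 (SD, n = 3), a log2 fold change of -0.33 ± 0.06 (SE; interval -0.47 to -0.19, limma adjusted p = 0.00624).

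The ratio of NFE2L2 to KEAP1 was 0.223, 0.215 and 0.249 in the parental libraries and 0.223, 0.218 and 0.239 in the OTX P/R libraries. The ranges overlapped almost fully. On the log2(value + 1) scale the ratio differed by -0.00 between the groups, with SDs of 0.11 and 0.07 (n = 3), and an exact two-sided permutation test of 3 against 3, which cannot go below 0.1, gave p = 1. The 5 tested genes whose profiles over the 6 libraries lay nearest to that of NFE2L2, by the distance between centred log2 values, were PAG1, EDEM1, HNRNPH2, ERI1 and SAMD9, at distances of 0.05 to 0.07.

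The genes around KEAP1 on its chromosome were lower as well. Of the 20 tested genes nearest to KEAP1, 10 on each side, 9 were lower and 1 was higher in OTX P/R cells, and their median log2 fold change was -0.32, almost that of KEAP1 itself. The part of this shift in the fall of KEAP1 was not tested. Around the other genes that fell the median was smaller in size, -0.06 for NFE2L2 (6 lower and 0 higher of 20), 0.05 for NQO1 (1 lower, 3 higher), -0.01 for GCLM (5 lower, 2 higher), -0.07 for HMOX1 (7 lower, 3 higher) and -0.00 for TXNIP (3 lower, 2 higher). Order along the chromosome was taken from GENCODE v29 on GRCh38.

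**Figure D2:**
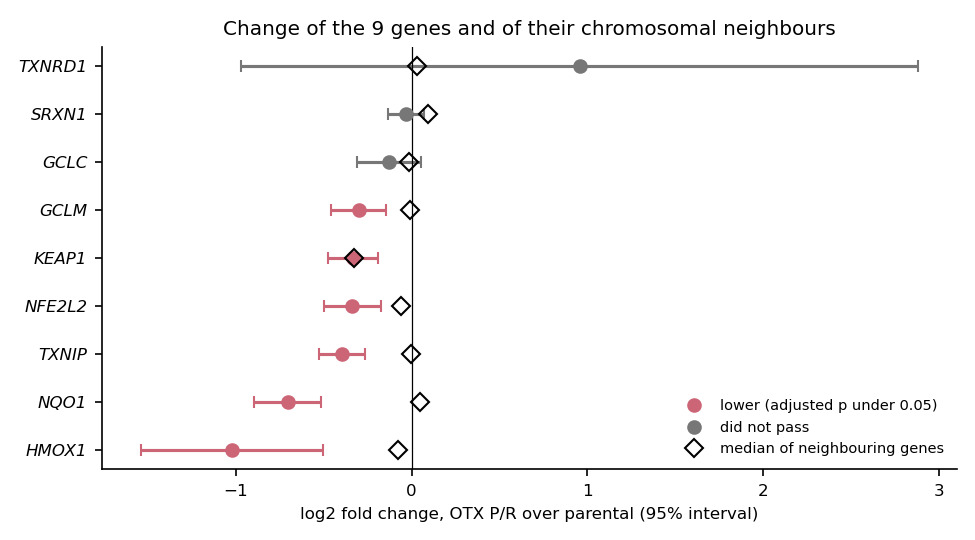
Log2 fold change of each of the 9 genes (x axis, points with 95% intervals; colour for the limma call) beside the median of its neighbouring tested genes (open diamonds). KEAP1 at -0.33 coincides with its neighbours at -0.32, while NQO1 at -0.70 and HMOX1 at -1.02 lie far below theirs.

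The largest falls were in 2 enzymes, those of quinone reduction and of heme degradation. NQO1 (ENSG00000181019, chromosome 16) stood at 17.4, 19.2 and 19.3 in parental and at 10.8, 12.1 and 10.3 in OTX P/R libraries. The lowest parental value was well above the highest OTX P/R value. Its mean went from 18.7 ± 1.09 to 11.1 ± 0.947 (SD, n = 3), 59.4% of the parental level, and the log2 fold change was -0.70 ± 0.08 (SE; interval -0.89 to -0.51, limma adjusted p = 0.00104). HMOX1 (ENSG00000100292, chromosome 22) stood at 28.3, 36.7 and 44.1 in parental and at 13.1, 19.6 and 19.4 in OTX P/R libraries. The groups were apart although the libraries of each were spread widely, with replicate 1 lowest in both. HMOX1 fell most of the 9 genes, from 36.4 ± 7.91 to 17.4 ± 3.74 (SD, n = 3), 47.8% of the parental level, with a log2 fold change of -1.02 ± 0.21 (SE; interval -1.54 to -0.50, limma adjusted p = 0.0125). Among all 10741 tested genes this was the 321st largest fall.

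The subunits of glutamate-cysteine ligase differed in their calls. GCLM (ENSG00000023909, chromosome 1), the modifier that raises the enzyme's efficiency, stood at 6.16, 5.51 and 5.83 in parental and at 4.53, 4.38 and 4.74 in OTX P/R libraries. All 3 OTX P/R values were below the parental ones, and the mean went from 5.84 ± 0.327 to 4.55 ± 0.184 (SD, n = 3; log2 fold change -0.30 ± 0.06 SE, interval -0.46 to -0.14, limma adjusted p = 0.0141). This call was lost without OTX P/R replicate 2 (log2 fold change -0.28, limma adjusted p = 0.0527), the single case among the 6 genes that fell. With a pseudocount of 5 in place of 1 the GCLM log2 fold change was -0.18, still called. GCLC (ENSG00000001084, chromosome 6), the catalytic subunit, stood at 10.3, 9.26 and 10.7 in parental and at 8.53, 9.46 and 9.45 in OTX P/R libraries, so that parental replicate 2 lay within the OTX P/R range. Its means were 10.1 ± 0.737 and 9.15 ± 0.531 (SD, n = 3), and the log2 fold change of -0.13 did not pass (interval -0.31 to 0.06, limma adjusted p = 0.238). The interval of GCLC holds the change of GCLM.

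The ratio of GCLC to GCLM gives the difference directly. It was 1.67, 1.68 and 1.83 in the parental libraries and 1.88, 2.16 and 1.99 in the OTX P/R libraries. Each OTX P/R ratio was above each parental ratio. Taken from log2(value + 1), the mean log2 difference was 0.17, with SDs of 0.07 and 0.09 (n = 3). The exact two-sided permutation p = 0.1 on that scale is the smallest that 3 against 3 can give. With a pseudocount of 5 the difference was 0.09.

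TXNRD1 was flat in 5 libraries and high in 1. TXNRD1 (ENSG00000198431, chromosome 12) stood at 4.71, 4.60 and 4.71 in the parental libraries, at 3.99 and 5.38 in OTX P/R replicates 1 and 2, and at 40.8 in OTX P/R replicate 3. The last value is 7.58 times the next highest, and the other OTX P/R libraries bracket the parental ones. The log2 fold change of 0.96 ± 0.79 (SE; interval -0.97 to 2.88) did not pass (limma adjusted p = 0.393), and without OTX P/R replicate 3 it was -0.01 (limma adjusted p = 0.973). TXNRD1 was the single tested gene with at least 1 in every library that OTX P/R replicate 3 showed at 5 times or more the level of all others, and the count of such genes was 0 to 3 for the other libraries. Among its 20 neighbours on the chromosome the value in OTX P/R replicate 3 was 0.204 to 1.58 times the median of the other libraries, and EID3, which overlaps TXNRD1, was no higher than 0.1265 in any library. Of the 7542 genes with a mean of at least 5, a span of 3 times or more within a group was seen for 1.62%.

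SRXN1 hardly moved. SRXN1 (ENSG00000271303, chromosome 20) stood at 40.9, 39.5 and 39.6 in parental and at 38.4, 39.0 and 39.8 in OTX P/R libraries, and the ranges overlapped. The log2 fold change was -0.03 ± 0.04 (SE; limma adjusted p = 0.578), and its interval of -0.14 to 0.07 leaves out changes as large as those of the 6 genes that fell. The value of SRXN1 is uncertain in another way: the annotation has a further protein-coding gene, AL121758.1, over it on the same strand, listed at 35.5 to 37.6 in the 6 libraries, and reads of the 2 genes may have been divided between them.

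TXNIP, the inhibitor of thioredoxin, fell with little spread. TXNIP (ENSG00000265972, chromosome 1) stood at 60.7, 54.9 and 56.3 in parental and at 42.1, 44.5 and 43.2 in OTX P/R libraries. The groups were far apart beside their spread, at 57.3 ± 3.02 and 43.3 ± 1.21 (SD, n = 3), 75.5% of the parental level, and the log2 fold change was -0.40 ± 0.05 (SE; interval -0.53 to -0.26, limma adjusted p = 0.00249). TXN, the thioredoxin that TXNIP binds, fell too, from 123 ± 6.82 to 99.5 ± 3.88 (log2 fold change -0.31, limma adjusted p = 0.00848). The ratio of TXNIP to TXN was 0.499, 0.420 and 0.479 in parental and 0.417, 0.434 and 0.454 in OTX P/R libraries, which overlap (mean difference on the log2(value + 1) scale -0.09, exact two-sided permutation p = 0.3). Of MLX and MLXIP, which encode the factors that act on the TXNIP element shown above, MLX fell from 25.7 ± 1.52 to 16.9 ± 0.335 (log2 fold change -0.58), and 18 of its 20 neighbours on chromosome 17 were lower as well, with a median of -0.70. MLXIP, which encodes MondoA, did not pass (16.9 ± 1.55 and 16.8 ± 1.08). Among the alpha-arrestin relatives of TXNIP, ARRDC1 and ARRDC3 rose (log2 fold changes 0.36 and 0.37). ARRDC4, which shares the glucose response, did not pass (9.07 ± 0.948 and 8.12 ± 0.222). The glucose transporter SLC2A1 fell by 0.22 on the log2 scale.

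Around these 9 genes, 160 others were grouped in 8 lists by role, of which 127 were tested, and 24 rose, 31 fell and 72 did not pass, beside 18.6% higher and 17.5% lower among all tested genes. Their median log2 fold change was -0.02, near that of all tested genes. The regulators of NRF2 and KEAP1 gave 3 higher, 3 lower and 12 not passed of 18, a share near the background. SQSTM1, the autophagy receptor p62 that removes KEAP1, fell from 35.6 ± 4.98 to 14.9 ± 2.24 (log2 fold change -1.21), and 14 of its 20 neighbours on chromosome 5 were lower, with a median of -0.62; the part of that shift was not tested. The ligase parts CUL3 (22.1 ± 2.04 and 19.7 ± 1.48) and RBX1 (51.2 ± 4.55 and 43.3 ± 2.01), the partner MAFG (22.0 ± 2.04 and 24.3 ± 0.225) and the competitor BACH1 (10.7 ± 1.65 and 9.02 ± 1.18) did not pass. RBX1 passed without parental replicate 1 (log2 fold change -0.31, limma adjusted p = 0.0157) and MAFG without parental replicate 3 (0.21, limma adjusted p = 0.0379). NFE2L3, a relative of NRF2, and DPP3, which competes for KEAP1, fell by 0.38 and 0.36 on the log2 scale. PGAM5, a mitochondrial KEAP1 binder, and NFE2, the blood cell relative of NRF2, rose (log2 fold changes 0.35 and 0.23). MAFK, another partner, rose by 0.24, a call that was lost without any library other than parental replicate 2 (limma adjusted p = 0.0512 to 0.0979).

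**Figure D3:**
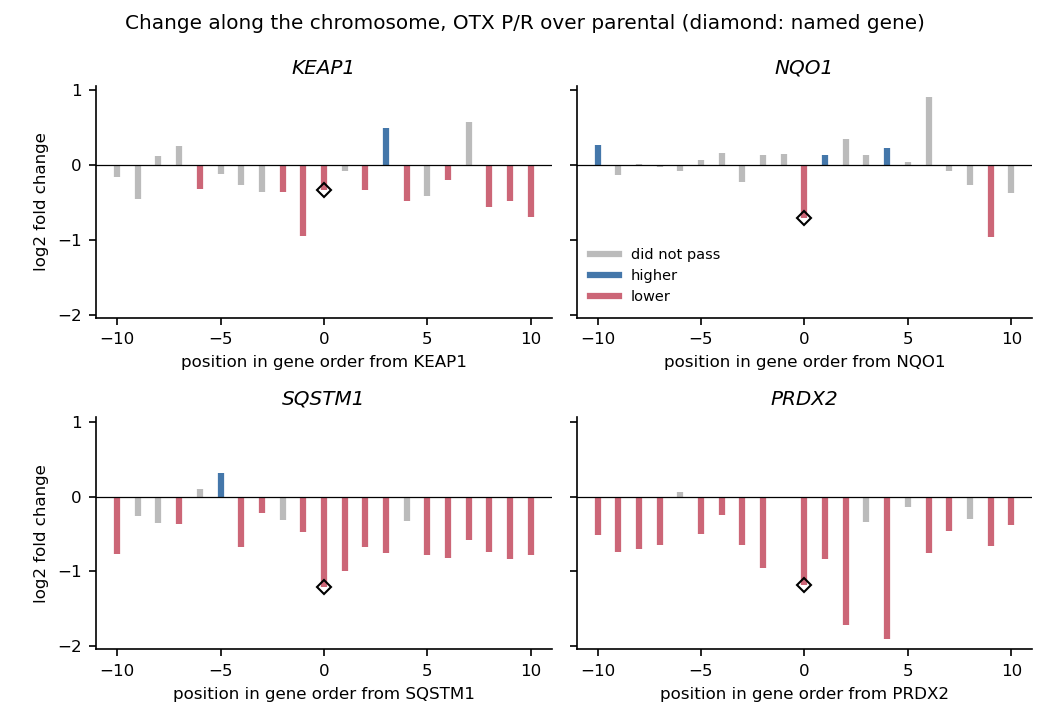
Log2 fold changes (y axis) of the tested genes on each side of KEAP1, NQO1, SQSTM1 and PRDX2 in gene order (x axis, number of tested genes away), coloured by the limma call, with the named gene at 0 under a diamond. Of 20 genes around NQO1 1 is lower and 3 are higher, while 14 of 20 genes around SQSTM1 and 15 of 20 around PRDX2 are lower.

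Of 24 tested enzymes of conjugation and carbonyl reduction 11 fell, 2 rose and 11 did not pass, beside 17.5% lower and 18.6% higher among all tested genes, and the median log2 fold change of the list was -0.27. Among the falls were genes of the AKR1C family on chromosome 10, the GSTM family on chromosome 1 and the CBR family on chromosome 21. Related genes on 1 chromosome were counted as separate falls. GSTM1 (1.47 and 0.829) met the minimum mean of 1 only through its parental libraries. The aldo-keto reductases of the AKR1C cluster on chromosome 10 fell together. AKR1C3 stood at 32.2, 35.6 and 34.3 in parental and at 13.3, 13.4 and 14.8 in OTX P/R libraries, a log2 fold change of -1.24 ± 0.06 (SE; limma adjusted p = 5.81e-05). AKR1C2 went from 5.38 ± 0.378 to 1.84 ± 0.337 and AKR1C1 from 10.4 ± 0.734 to 4.73 ± 1.06 (SD, n = 3), and no library of the groups overlapped for the 3 genes. These are near-identical copies between which reads can be split, and AKR1C3 has a second row in the table, with means of 57.3 and 22.6, under an identifier that the annotation lacks. Around AKR1C3 the median of 20 neighbours, its own relatives among them, was -0.12. GSTM3, a glutathione transferase, fell by 1.31 on the log2 scale, from 22.1 ± 2.16 to 8.43 ± 2.05. Of its 20 neighbours on chromosome 1, 9 were lower and 4 higher, with a median of -0.22. AKR1B1, aldose reductase, went the other way, from 36.4 ± 2.07 to 86.4 ± 0.796, in a stretch of chromosome 7 where 16 of 20 neighbours were higher, and ALDH3A2 rose by a log2 fold change of 0.39.

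**Figure D4:**
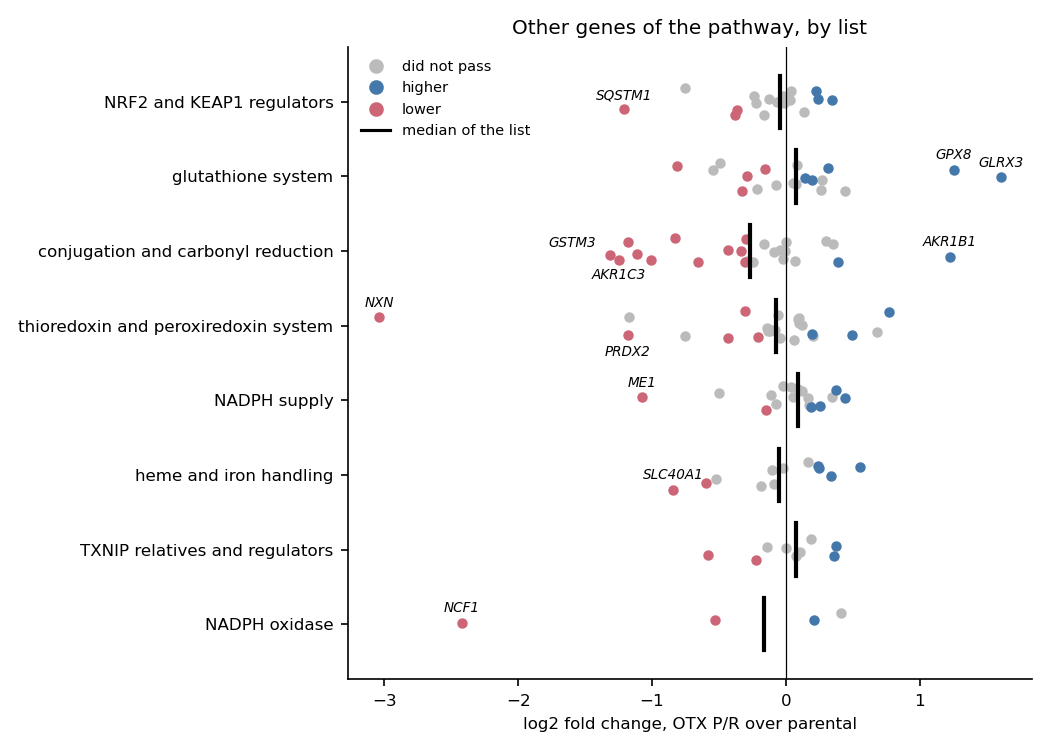
Log2 fold change (x axis) of the 127 tested genes of the 8 lists (rows), each point a gene coloured by its limma call, with a vertical bar at the median of the list. The list of conjugation and carbonyl reduction has its median at -0.27, and the medians of the other lists lie between -0.16 and 0.09.

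Of 19 tested genes of the glutathione system 5 rose, 4 fell and 10 did not pass (median log2 fold change 0.08), shares near the 18.6% higher and 17.5% lower of all tested genes. GSS, which completes glutathione synthesis after the ligase, rose from 35.2 ± 0.611 to 44.2 ± 1.46 (log2 fold change 0.32, limma adjusted p = 0.00291). GSR, which regenerates reduced glutathione, went from 45.7 ± 1.82 to 40.8 ± 0.146, and SLC7A11, the cystine carrier, had little abundance, 1.36 ± 0.171 in parental and 0.927 ± 0.0664 in OTX P/R cells. Both were called lower, GSR at a limma adjusted p = 0.0413 and SLC7A11 at 0.0358. The GSR call was lost without any library other than parental replicate 3 (adjusted p = 0.0792 to 0.105) and the SLC7A11 call without any other than parental replicate 2 (0.0636 to 0.103). Without parental replicate 1 or any OTX P/R replicate the list had 2 genes called lower, and without OTX P/R replicate 3 it had 3 called higher. Among the glutaredoxins, which reduce mixed disulfides with glutathione, GLRX3 rose from 14.3 ± 2.22 to 46.1 ± 10.4, while GLRX fell from 8.11 ± 0.936 to 4.17 ± 0.130 and GLRX2 by 0.33 on the log2 scale. GPX8, a peroxidase of the endoplasmic reticulum, rose from 0.425 ± 0.0809 to 2.41 ± 0.189. It met the minimum mean of 1 only through its OTX P/R libraries, so it could be called only as a rise. SLC7A11, with an OTX P/R mean under 1, met the minimum only through its parental libraries. With a minimum mean of 5 the list had 4 genes called higher and 3 called lower.

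Of 24 tested genes of thioredoxin, peroxiredoxin and superoxide chemistry 3 rose, 5 fell and 16 did not pass, also near the 18.6% higher and 17.5% lower of all tested genes. NXN, nucleoredoxin, stood at 12.9, 12.8 and 12.4 in parental and at 0.947, 1.00 and 0.192 in OTX P/R libraries, a log2 fold change of -3.04 ± 0.205 (SE; limma adjusted p = 1.44e-04). With an OTX P/R mean of 0.713, NXN met the minimum mean of 1 only through its parental libraries. PRDX2, a peroxiredoxin abundant in red cells, fell from 413 ± 5.45 to 182 ± 4.41, and 15 of its 20 neighbours on chromosome 19 were lower, with a median of -0.58. PRDX1 did not pass (212 ± 6.10 and 198 ± 3.99). MSRB2, a methionine sulfoxide reductase, and SESN3, a sestrin, rose (log2 fold changes 0.77 and 0.49), and so did CAT, catalase (0.20), a call that was lost without any library other than OTX P/R replicate 1 (limma adjusted p = 0.0552 to 0.0931). Without parental replicate 2, OTX P/R replicate 1 or OTX P/R replicate 3 the count of falls was 3.

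NADPH is the reductant that NQO1, GSR and TXNRD1 draw on, and of 17 tested genes of its supply 4 rose, 2 fell and 11 did not pass, again near the 18.6% higher and 17.5% lower of all tested genes. ME1, malic enzyme, fell from 6.56 ± 0.139 to 2.59 ± 0.140 (log2 fold change -1.07 ± 0.06 SE, limma adjusted p = 7.79e-05), with neighbours at a median of -0.03. The fall of PGD, of 0.15 on the log2 scale, was lost without any of the 6 libraries (limma adjusted p = 0.0527 to 0.117), which left 1 gene called lower. NADK2, PGLS and RPIA rose by log2 fold changes of 0.44, 0.38 and 0.25.

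Of 12 genes of heme and iron handling, which share the path of HMOX1, 4 rose, 2 fell and 6 did not pass, beside 18.6% higher and 17.5% lower among all tested genes. FTH1, ferritin heavy chain, rose from 1237 ± 73.0 to 1563 ± 65.1 (log2 fold change 0.34, limma adjusted p = 0.00647), and FTL, the light chain, did not pass (log2 fold change -0.10, limma adjusted p = 0.193), although it did without parental replicate 3 (-0.16, adjusted p = 0.0228). Both ferritin genes were near the top of the ranking, where quantile normalization gives the libraries a few shared values. FTL stood at 4249.4, 4249.6 and 3815.7 in parental and at 3815.3, 3815.3 and 3815.5 in OTX P/R libraries. The changes of FTH1 and FTL are thus steps of rank, and their SDs and p-values do not give a spread of abundance. SLC40A1, the iron exporter ferroportin, fell from 56.8 ± 3.85 to 31.3 ± 0.942, and TFRC, the transferrin receptor, by 0.59 on the log2 scale. ABCB6, a porphyrin carrier, SLC48A1, a heme carrier, and FECH, ferrochelatase, rose by log2 fold changes of 0.56, 0.25 and 0.24. The FECH call was lost without any library other than OTX P/R replicate 1 (limma adjusted p = 0.0605 to 0.0919), which left 3 genes called higher.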

How the data were processed

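Total RNA of 6 cultures, 3 per group by the sample titles, was sequenced. The authors' tools were Trim Galore, HISAT2 and StringTie on hg19, per the submitters' processing notes, without versions. The deposited signal is a StringTie abundance per gene; whether FPKM or TPM is not given. Above 1, the sorted values of the libraries were within 0.243% of each other, as quantile normalization gives, so depth and total RNA are not kept and no counting intervals are given. Rows with a missing value, 6 of 19785, were left out.

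Values were taken as log2(value + 1), and limma 3.58.1 (R 4.3.3; lmFit, then eBayes with a trended prior, two-sided, Benjamini-Hochberg) was run on the 10741 genes whose mean was 1 or more. Fold changes of genes with low values come out too small on this scale. The p-values measure the spread between these cultures, which may be technical. Ratios were printed as value over value, while their log2 differences, SDs and tests took log2(value + 1). They were tested by exact permutation with SciPy 1.17.1. A repeated symbol was taken by its annotated row. The genes and lists were chosen with earlier results of these data known. Named were the 9 genes, up to 3 called genes per direction and list, 13 fixed genes called or not (1 of them is not reported here), the 5 nearest profiles, marker genes of other cell types, and, chosen after values were seen, AKR1C1, FECH, MLXIP, ARRDC4, CYBB, NOX4, the genes with uneven replicates and those with a promoter match. Alternatives were other pseudocounts (0.1, 5), no filter or a minimum mean of 5, an untrended or robust prior, median centring, a replicate block and each library left out.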

Additional observations from a re-analysis of the deposited data

How the results depend on the processing

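All 6 falls kept their direction under every alternative, and their calls in all but 1: GCLM without OTX P/R replicate 2 had a log2 fold change of -0.28 and a limma adjusted p = 0.0527. Over the libraries left out, the log2 fold change ranged from -0.39 to -0.31 for NFE2L2, -0.37 to -0.29 for KEAP1, -0.77 to -0.66 for NQO1, -0.33 to -0.27 for GCLM, -1.19 to -0.84 for HMOX1 and -0.43 to -0.36 for TXNIP. For genes that did not pass it was -0.18 to -0.08 for GCLC, -0.05 to -0.02 for SRXN1 and -0.0068 to 1.53 for TXNRD1, whose sign turned without OTX P/R replicate 3. With a pseudocount of 5 the GCLM log2 fold change was -0.1816. Among genes that did not pass, MGST2 was 0.0044 with a pseudocount of 5, and over libraries left out MGST2 ranged from -0.6056 to 0.5540, HMOX2 from -0.7800 to 0.2079 and MLXIP from -0.0724 to 0.0514. The GCLC to GCLM log2 ratio differed by 0.0898 with a pseudocount of 5 and by 0.13 to 0.22 over libraries left out. The count of the 9 genes called lower was 5 to 6 and of those called higher 0. Deviations from the group means correlated at -0.07 to 0.00 between same-numbered libraries and at -0.05 to 0.08 between differently numbered ones. Taken from means of 3 libraries, such correlations cannot decide whether the cultures were paired. With the replicate number as a block the 6 calls stood, NFE2L2 keeping its log2 fold change of -0.34. Under the block, the count of all tested genes called was 3159, with list genes called higher at 20 and list genes called lower at 29; GSR, SLC7A11, ALDH3A2, CAT, PGD, ARRDC1, CYBA and FECH lost their call and RBX1 gained one. Depth is unknown, which limits what can be said of low genes.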

Other observations

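Genes of the NADPH oxidase, which makes superoxide in phagocytes, were mostly too low to test: 4 of 10 were tested, and NOX4 was listed at 0 throughout. NCF1, the organizer subunit p47phox, stood at 7.59, 7.52 and 6.81 in parental and at 1.27, 0.356 and 0.206 in OTX P/R libraries, a log2 fold change of -2.42 (limma adjusted p = 6.56e-04); it has near-identical pseudogene copies with which reads can be shared. CYBA, a membrane subunit, fell by 0.53 on the log2 scale, a call that was lost without parental replicate 1, 2 or 3 (limma adjusted p = 0.0575 to 0.0777), and NCF4 rose by a log2 fold change of 0.21. CYBB, the catalytic subunit, was below the tested range at 0.575 and 0.773. NCF1, with an OTX P/R mean of 0.611, was in that range only through its parental libraries.

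Besides TXNRD1, several genes of the redox lists had libraries of the same group far apart. TXNL1, a thioredoxin relative, stood at 9.43, 10.01 and 44.7 in parental and between 9.21 and 9.45 in OTX P/R libraries. MGST2, a microsomal glutathione transferase, stood at 69.6, 36.9 and 19.9 in parental and at 16.4, 35.2 and 86.04 in OTX P/R libraries. PARK7, the redox chaperone DJ-1, stood at 187.7, 101.2 and 218 in parental and at 74.4, 177.1 and 26.5 in OTX P/R libraries. TXNRD2, the mitochondrial relative of TXNRD1, stood at 1.86, 5.81 and 1.76 in parental and at 7.28, 7.87 and 2.00 in OTX P/R libraries. HMOX2, the constitutive relative of HMOX1, stood at 20.3, 20.1 and 5.13 in parental and at 14.1, 16.3 and 6.17 in OTX P/R libraries. None of these genes passed the limma test. With NXN, NCF1 and TXNRD1, 8 genes of the lists had a span of 3 times or more within a group, and OTX P/R replicate 3 was the highest of its group for 2 of them (TXNRD1, MGST2) and the lowest for 5 (TXNRD2, NXN, PARK7, HMOX2, NCF1). For HMOX2 the span was 3.96 times in parental and 2.64 times in OTX P/R libraries, and for NCF1 OTX P/R replicate 1 was the one apart. The 8 genes were taken without a minimum mean of 5. At that setting the share of all tested genes with a span of 3 times was not taken. Over all genes with a mean of at least 5, 69 had such a span within the OTX P/R group, and the library farthest from the group's median on the log2 scale was replicate 1 for 25, replicate 2 for 22 and replicate 3 for 22 of them. Without OTX P/R replicate 3 all 6 falls among the 9 genes of the NRF2 response were still called.

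The TGACNNNGC core was counted in the promoter windows of the tested pathway genes by their call. It was found in 7 of 27 genes called lower (25.9%), in 3 of 18 called higher (16.7%) and in 15 of 60 that did not pass (25%). Among all genes with such windows the share was 16.1%. ME1, CBR1, GSTO1, GSTM1, MGST1, PGD and MLX were the 7 lower genes with a match, and MTHFD2, FECH and ABCB6 the 3 higher ones. A link of the motif with the calls was not tested.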
